A study of Mus musculus with 3 samples.

Results

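The genes of translation initiation and elongation factors were read for H3K27ac, the acetylation of lysine 27 on histone H3 that is found at promoters and enhancers in use. They were chosen by name, as all mouse protein-coding genes whose symbol begins with Eif or Eef and a digit, which gave 71 of 21887 protein-coding genes. The study used chromatin immunoprecipitation and sequencing (ChIP-seq) to follow enhancers of antigen receptor genes in developing lymphocytes. Its H3K27ac data used here are 2 replicates (replicate 1 and replicate 2) of double-negative thymocytes, which lack CD4 and CD8 and were sorted as CD25+CD44-/+ cells from thymus of wild-type C57BL/6J mice aged 5 to 7 weeks. Chromatin was captured with an antibody to histone H3 before the H3K27ac precipitation. The labels do not say whether the replicates came from separate animals, how many animals were pooled, or their sex, and the input sample was not analysed here. There is thus 1 group and no contrast between conditions, and the factor genes are set beside all protein-coding genes without a test.

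Translation begins when eIF2 brings the initiator tRNA to the small ribosomal subunit together with eIF1, eIF1A, eIF3 and eIF5. The cap-binding complex eIF4F, made of the cap-binding protein eIF4E, the helicase eIF4A and the scaffold eIF4G, recruits the mRNA. eIF5B joins the large subunit, eEF1A then delivers each aminoacyl-tRNA and eEF2 moves the ribosome along. Every cell depends on these factors, while some have second copies that are used in few tissues. Regulators act on the pathway by phosphorylating eIF2 alpha, by holding eIF4E, or by modifying the elongation factors.

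The files list 12377 peaks in replicate 1 and 9477 in replicate 2 on the assembled chromosomes, and hold no read counts, so depth is unknown. A peak within 1 kb of either annotated end of a gene is called a gene-end peak, and a gene with such a peak in both replicates is called acetylated. Each peak carries the fold enrichment and the −log10 q that the authors' peak caller gave it, where 1.3 marks a q-value of 0.05, and pairs of values are given for replicate 1 and then replicate 2. Of the T lineage markers 4 of 8 were acetylated, Tcf7 and the adjacent Cd3d, Cd3e and Cd3g on chromosome 9, while Rag1 was unmarked in both replicates. Of 15 markers of later thymocytes, B cells, myeloid cells, erythroid cells and stroma, 0 had a gene-end peak in either replicate. On chromosomes 6, 9, 14 and 17 fold and q-value related differently from the rest, and chromosome 9 stood farthest apart in both files. It held 314 of the 457 peaks of replicate 1, and 333 of the 507 peaks of replicate 2, that combined a fold enrichment under 1.5 with a q-value of at most 0.05, and its median fold was 1.44 and 1.25, where all peaks had 2.17 and 2.31. Chromosome 14 held 62 and 85 and chromosome 17 held 46 and 50 of such peaks. On chromosome 6 peaks of at least 4-fold had a median −log10 q of 13.8 and 13.4, where those outside the 4 chromosomes had 5.09 and 5.51. Members on these chromosomes are Eef1a1, Eif1b and Eif3g (9), Eif2ak3, Eif4a3l1 and Eif4e3 (6), Eef1akmt1 (14) and Eif2ak2 (17).

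Of the 71 factor genes 33 (46.5%) were acetylated, against 16.8% of all protein-coding genes. A further 9 were marked in replicate 1 alone, 9 in replicate 2 alone, and 20 in neither. Each replicate by itself marked 42 factor genes (59.2%), against 25.1% of all genes in replicate 1 and 22.2% in replicate 2, and a peak in either replicate marked 51 (71.8%), against 30.5%. At all 33 acetylated genes the peaks of the replicates overlapped, as they did at 3540 of the 3674 acetylated protein-coding genes. In these bulk samples a missing peak can reflect fewer cells with the mark or less of it per cell, which cannot be told apart. Most of these peaks were weak. Only 7 genes (9.86%) had a gene-end peak with a q-value of at most 0.05 in both replicates, against 2.64% of all genes. They were Eif1, Eif3a, Eif4a2, Eif4e2, Eif4g2, Eef1g and Eef1a1.

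The factors themselves were set beside their regulators, a grouping made after the values were seen. Of 55 genes for factors and subunits 30 (54.5%) were acetylated and 42 (76.4%) had a gene-end peak in either replicate. Of 16 genes for kinases, repressors and modifying enzymes 3 (18.8%) were acetylated, near the 16.8% of all genes, but 9 (56.2%) had a peak in either replicate, against 30.5% of all genes. Eif4e2, an acetylated gene whose product represses translation, was counted with the factors, as it sits in the eIF4 group. The difference between factors and regulators depends on such placements and was not tested. Elongation factors had 5 of 7 genes acetylated and eIF3 had 8 of 14. The 10000 peaks of smallest p were then kept, which trimmed replicate 1 alone, as replicate 2 held 9477. On these peaks elongation factors had 3 of 7 and eIF3 had 8 of 14, so the order of the groups depends on the peaks counted.

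**Figure D1:**
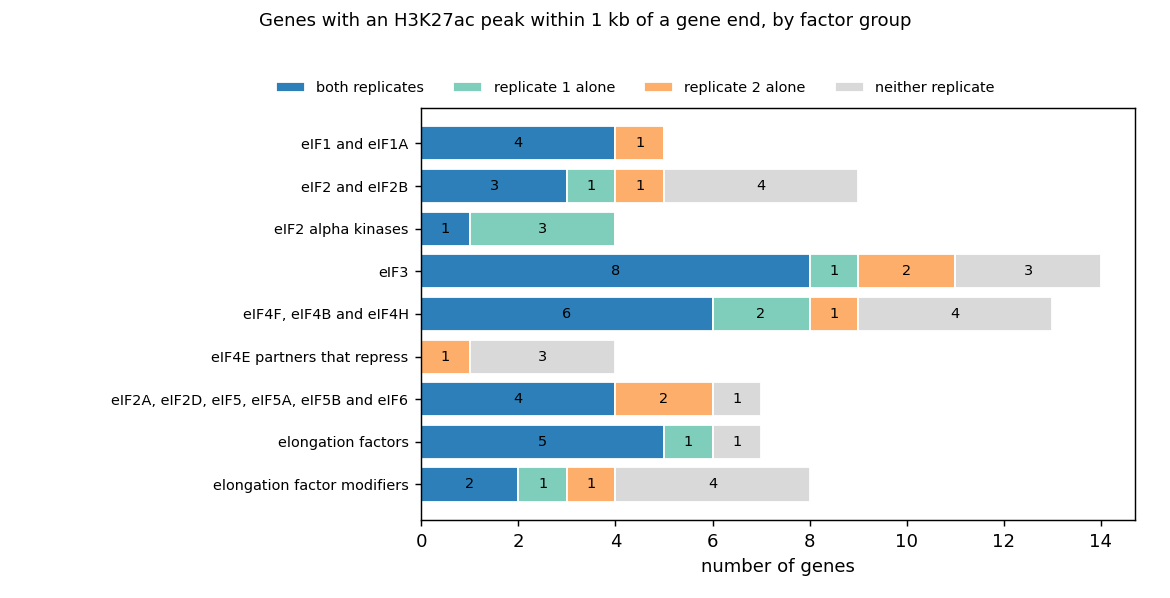
Number of factor genes (x axis) in each of 9 groups (y axis) with a gene-end H3K27ac peak in both replicates, in 1 replicate alone or in neither. eIF3 has 8 of 14 genes with peaks in both replicates, elongation factors 5 of 7, and the repressing partners of eIF4E 0 of 4. Of all protein-coding genes 16.8% have them.

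Broadly used copies were set against copies known from few tissues, retrocopies and the Y-linked copy. Of 7 broadly used genes 5 were acetylated (Eef1a1, Eif1, Eif1ax, Eif4a3 and Eif5a), and the other 2, Eif4e and Eif2s3x, were marked in replicate 2 alone. Eif1 has no counterpart among the other copies, as its relative Eif1b was placed in neither set. Of 7 other copies 1 was acetylated, Eif1a, and the remaining 6 (Eef1a2, Eif2s3y, Eif4a3l1, Eif4e1b, Eif4e3 and Eif5a2) were unmarked in both replicates. As 16.8% of all genes were acetylated, the count of the other copies is near the background and is no result about them, while that of the broadly used genes lies above it. With a q-value of at most 0.05 required in both replicates, 2 of the broadly used genes (Eef1a1 and Eif1) and 0 of the other copies were called, and without Eef1a1, on chromosome 9, this leaves Eif1 alone. The 6 unmarked copies also had 0 bp under peaks of either replicate within 25 kb of a gene end, where all genes had a median of 441 bp. For bp under peaks of both replicates the median of all genes was 0 bp.

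eEF1A, the carrier of aminoacyl-tRNA, is encoded by Eef1a1 in most cells and by Eef1a2 in neurons and muscle. At Eef1a1 (chr9:78478453-78481724, minus strand) the peak of replicate 1 spanned 135 to 820 bp into the gene with a fold of 1.94 and a −log10 q of 29.6. The peak of replicate 2 spanned 168 to 1246 bp with a fold of 1.01 and a −log10 q of 1.56. A fold so near 1 beside a q-value under 0.05 is the pattern seen over chromosome 9, so its q-values were not ranked against those of other chromosomes. At Eef1a2 (chr2:181141758-181157015) the nearest peak lay 62543 bp away in replicate 1 and 30385 bp away in replicate 2.

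eIF5A, which helps the ribosome join difficult peptide bonds, is made mainly from Eif5a, and Eif5a2 is used in brain and testis. Eif5a (chr11:69916712-69921958, minus strand) had the greatest length under peaks of both replicates of all 71 genes, 2332 bp within 25 kb, more than 98.9% of protein-coding genes, of which 909 bp lay in its own gene-end peaks. An end of Gps2 lies within 1 kb of an end of Eif5a. Its own gene-end peaks had folds of 1.88 and 2.06 in replicates 1 and 2 and −log10 q of 0.613 and 0.814. They began 685 and 636 bp downstream of its first annotated start, and 3 of its 6 annotated starts in replicate 1, and 4 in replicate 2, lay under them. At Eif5a2 (chr3:28781032-28798846) the nearest peak was 45604 bp away in replicate 1 and 149079 bp away in replicate 2.

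eIF4A3 is the helicase of the exon junction complex, and Eif4a3l1 is a compact copy of its gene on chromosome 6. At Eif4a3 (chr11:119288363-119300043, minus strand) peaks covered the start in both replicates, with folds of 2.70 and 2.69 and −log10 q of 0.999 and 1.5. Eif4a3l1 (chr6:136327539-136329983) had its nearest peak at 75073 bp in replicate 1 and 188971 bp in replicate 2. How reads that match several near-identical copies were placed is not given in the sources used here, so absent peaks at copies such as Eif4a3l1 and Eif3j2 are uncertain.

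For the cap-binding protein, Eif4e (chr3:138526191-138559696) had no gene-end peak in replicate 1, where the nearest was 33552 bp away. In replicate 2 its peak of 1608 bp began 320 bp into the gene, with a fold of 2.42 and a −log10 q of 1.18. Eif4e1b, the copy of oocytes, had its nearest peaks at 90046 and 89315 bp in replicates 1 and 2, and Eif4e3 had them at 98100 and 98384 bp. The gamma subunit of eIF2 is encoded on both sex chromosomes. Eif2s3x, on X, had a peak of 247 bp in replicate 2 alone, 160 bp upstream of its start, with a fold of 1.61 and a −log10 q of 0.497. Eif2s3y, on Y and broadly expressed in males, had its nearest peaks at 195933 and 195954 bp in replicates 1 and 2. As the sex of the animals is not given, the missing peaks at this gene cannot be read.

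For eIF1A, which scans for the start codon, both copies were acetylated. Eif1ax, on X, was acetylated by small peaks of 291 bp in replicate 1 and 229 bp in replicate 2, which shared only 84 bp and had folds of 1.99 and 1.14 and −log10 q of 0.8 and 1.66. The autosomal copy Eif1a had wider peaks over its gene end, 946 and 1267 bp, with folds of 2.28 and 2.27 and −log10 q of 0.963 and 1.19. An end of Tmed7 lies within 1 kb of those peaks, so they cannot be assigned to Eif1a alone, and the sources used here do not give the tissues that use Eif1a.

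**Figure D2:**
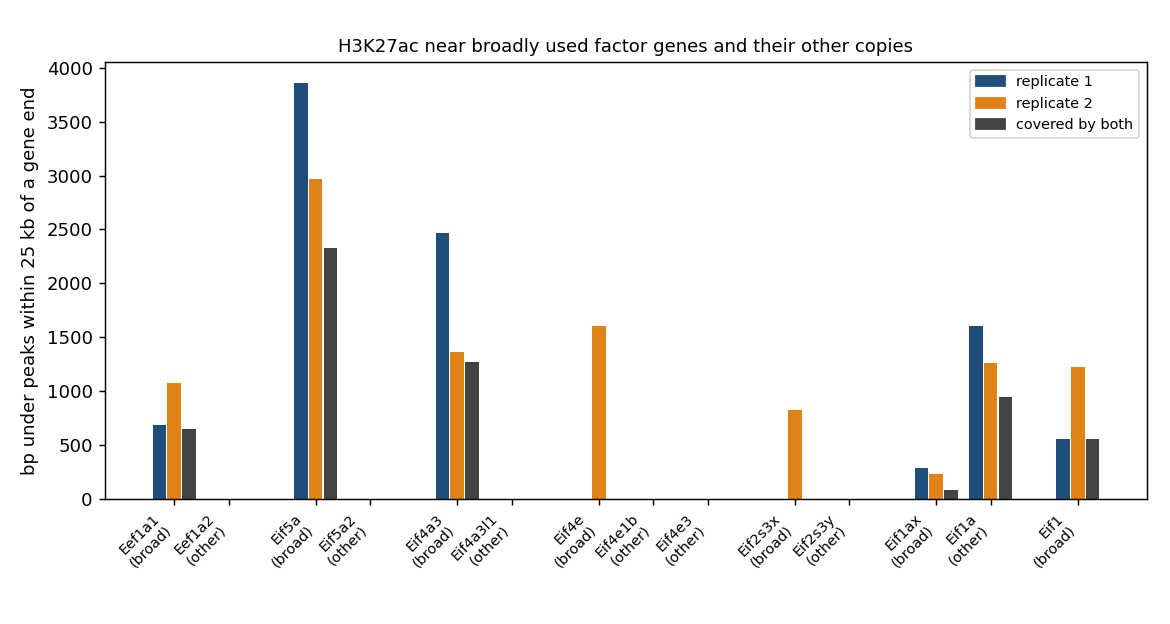
Bars give the bp under peaks within 25 kb of a gene end (y axis; the larger of the 2 ends) in replicate 1, in replicate 2 and under peaks of both, for broadly used copies and, right of each, their other copies. Eif1 is shown without another copy. Eef1a2, Eif5a2, Eif4a3l1, Eif4e1b, Eif4e3 and Eif2s3y stand at 0 in both replicates, and Eif1a has 946 bp under peaks of both.

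The sequences before the starts show how these copies differ at the promoter. RefSeq promoters of GRCm38.p6 were matched to 55 of the 71 genes, and the 5'-most start was used. For 8 genes, 3 pairs of copies and the acetylated genes Eif1 and Eef2, 150 bases before the start and the first 20 transcribed bases are given 5' to 3' on the gene's strand. Capitals mark matches that lie wholly before the start, on either strand, to the motifs spelled out further below, and at the start a run of at least 5 pyrimidines that begins with C. The windows are chr9:78481705-78481874 (minus), chr2:181156996-181157165 (minus), chr11:69921939-69922108 (minus), chr3:28781127-28781296 (plus), chr11:119300024-119300193 (minus), chr6:136327389-136327558 (plus), chr11:100319799-100319968 (plus) and chr10:81176481-81176650 (plus).
Eef1a1: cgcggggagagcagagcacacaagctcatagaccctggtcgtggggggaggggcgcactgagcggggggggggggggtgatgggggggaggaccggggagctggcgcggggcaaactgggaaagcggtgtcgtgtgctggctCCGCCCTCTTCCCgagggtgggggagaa
Eef1a2: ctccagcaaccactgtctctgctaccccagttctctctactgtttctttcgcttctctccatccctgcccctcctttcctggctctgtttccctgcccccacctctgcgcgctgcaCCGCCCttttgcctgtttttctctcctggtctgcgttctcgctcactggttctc
Eif5a: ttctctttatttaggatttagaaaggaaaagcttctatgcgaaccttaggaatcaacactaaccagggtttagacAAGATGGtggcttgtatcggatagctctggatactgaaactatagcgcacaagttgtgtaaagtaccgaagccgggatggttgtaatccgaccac
Eif5a2: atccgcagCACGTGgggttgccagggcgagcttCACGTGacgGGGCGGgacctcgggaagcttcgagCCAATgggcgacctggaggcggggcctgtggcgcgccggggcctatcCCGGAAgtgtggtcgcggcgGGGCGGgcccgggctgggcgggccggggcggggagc
Eif4a3: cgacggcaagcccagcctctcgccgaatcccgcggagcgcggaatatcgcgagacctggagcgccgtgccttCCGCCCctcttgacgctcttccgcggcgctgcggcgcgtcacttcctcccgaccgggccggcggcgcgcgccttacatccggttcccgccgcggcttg
Eif4a3l1: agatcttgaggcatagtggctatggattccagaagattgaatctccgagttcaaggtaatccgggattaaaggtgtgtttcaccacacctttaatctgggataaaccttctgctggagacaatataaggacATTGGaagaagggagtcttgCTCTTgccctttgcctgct
Eif1: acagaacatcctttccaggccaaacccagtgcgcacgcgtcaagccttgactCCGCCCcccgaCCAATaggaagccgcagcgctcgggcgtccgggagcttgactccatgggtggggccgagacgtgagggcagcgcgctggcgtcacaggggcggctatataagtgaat
Eef2: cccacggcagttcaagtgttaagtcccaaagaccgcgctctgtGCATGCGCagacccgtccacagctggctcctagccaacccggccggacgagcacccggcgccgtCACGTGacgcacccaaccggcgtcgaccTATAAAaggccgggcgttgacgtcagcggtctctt

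Among these sequences that of the unmarked Eif5a2 held the most matches, with 2 E-boxes 142 and 117 bases before the start, a CCAAT box 83 bases before it, 2 GC boxes and the ETS letters. Eif5a held the YY1 letters 75 bases before its first start, a window that lies upstream of its peaks. Eef2 held the NRF1 letters 107 bases, an E-box 43 bases and a TATA box 15 bases before the start. The copies thus did not sort by the number of matches.

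Content of CpG, the dinucleotide that marks CpG island promoters, separated only some of these pairs. Over 300 bases around the start, the ratio of observed to expected CpG was 0.697 at Eef1a1 and 0.417 at Eef1a2, and 1.21 at Eif4a3 and 0.202 at Eif4a3l1. Eif5a had 0.786 and its unmarked copy Eif5a2 had 0.913, and Eif2s3x and Eif2s3y had 0.863 and 0.859. Eif4e had 0.474, the lowest of the broadly used genes with a matched start. This ratio is that of the first of its 2 annotated starts. The second, 1077 bp downstream, was the one under its peak of replicate 2. In the Eef1a1 sequence a run of 10 pyrimidines begins 5 bases before the annotated start and overlaps a GC box. Terminal oligopyrimidine tracts, known from growth-controlled mRNAs of the translation machinery, lie at the first base of the mRNA. Whether the Eef1a1 mRNA begins in this run was not tested.

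Among the first-acting initiation factors, eIF1 and eIF1A were acetylated at 4 of 5 genes. Eif1, whose product guards start codon choice, had the tallest peaks of this group. Its peak of replicate 1 spanned 11 to 570 bp into the gene with a fold of 4.02 and a −log10 q of 3.53. That of replicate 2 spanned 516 bp upstream to 710 bp into the gene with a fold of 2.78 and a −log10 q of 1.93. The fold of the first exceeded that of 96.7% of all gene-end peaks of replicate 1, and no other coding gene ends within 1 kb of Eif1. Eif1ad, which encodes a protein with an eIF1A-like domain, had folds of 2.12 and 2.04 and −log10 q of 0.899 and 1. Peaks of both replicates covered 1327 bp within 25 kb of it, of which 387 bp lay in its own peaks, and an end of Banf1 lies within 1 kb. Eif1b, a close relative of Eif1 on chromosome 9, had a peak in replicate 2 alone, with a fold of 1.01.

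The eIF2 complex and its exchange factor eIF2B, which reloads eIF2 with GTP, were acetylated at 3 of 9 genes (33.3%), against 16.8% of all genes. Eif2s2, the beta subunit, had peaks of 428 and 424 bp with folds of 2.16 and 2.73. Their −log10 q was 0.884 and 1.09. Eif2b2 had folds of 3.01 and 2.17 with −log10 q of 1.86 and 0.761. Eif2b4 had folds of 2.13 and 1.82 with −log10 q of 0.67 and 0.662. Its 1412 bp under peaks of both replicates within 25 kb were the most of this group, but 218 bp of them lay in its own peaks, and an end of Snx17 lies within 1 kb. Eif2s1, the alpha subunit that is phosphorylated under stress, had a peak of 2069 bp in replicate 1 alone, with a fold of 2.40. It reached from 1940 bp upstream to 128 bp into the gene, and an end of Atp6v1d lies within 1 kb of it. Eif2b1, Eif2b3 and Eif2b5 were unmarked in both replicates and had 0 bp within 25 kb.

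The 4 kinases that phosphorylate eIF2 alpha each had a gene-end peak in replicate 1, and Eif2ak4 alone had one in replicate 2. Eif2ak4, which encodes GCN2, the sensor of amino acid shortage, had folds of 2.73 and 3 and −log10 q of 0.891 and 2.48. The tallest factor peaks of replicate 1 were among those seen in 1 replicate. Eif2ak3, which encodes the endoplasmic reticulum kinase PERK, had a fold of 4.49 with a −log10 q of 9.89 in replicate 1, where peaks of at least 4-fold on chromosome 6, on which it lies, had a median of 13.8. Eif2ak1, the heme-regulated kinase, had a fold of 4.45 with a −log10 q of 4.51. Replicate 2 had no gene-end peak at either gene. Eif2ak2, the double-stranded RNA kinase PKR, had a fold of 1.70 in replicate 1, and an end of Gm26637 lies within 1 kb of that peak.

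eIF3, the large scaffold on the small subunit, was acetylated at 8 of 14 genes (Eif3a, Eif3b, Eif3d, Eif3e, Eif3h, Eif3j1, Eif3k and Eif3m). Folds of the 8 ran from 2 to 2.58 in replicate 1 and from 2.13 to 2.92 in replicate 2, so that none was tall. Eif3a, the largest subunit, had folds of 2.57 and 2.92 and −log10 q of 1.38 and 1.72, the only eIF3 gene with a q-value of at most 0.05 in both replicates. Eif3b had folds of 2 and 2.40, −log10 q of 0.686 and 0.937 and 1212 bp under peaks of both replicates. Eif3d had folds of 2.58 and 2.15, −log10 q of 1.39 and 0.991 and 1174 bp, and Eif3j1 had 960 bp. At Eif3k the peaks of 2180 and 1262 bp had an end of Map4k1 within 1 kb, and in replicate 1 the peak ended 307 bp before the start of Eif3k. Eif3i had 1221 bp within 25 kb, the most of eIF3, but these bp lay at Iqcc and Ccdc28b, and its own gene-end peak, of 1015 bp with a fold of 1.5 and a −log10 q of 0.503, was in replicate 2 alone. An end of Tmem234 lies within 1 kb of that Eif3i peak. Eif3c had a peak in replicate 1 alone and Eif3f in replicate 2 alone. Eif3g, Eif3j2 and Eif3l had none, and the 963 bp shared near Eif3g lay at an end of Ppan.

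In the eIF4 group, which unwinds and recruits mRNA, 6 of 13 genes were acetylated. All 3 helicase genes of the eIF4A family other than Eif4a3l1 were among them. An end of Senp3 lies within 1 kb of the Eif4a1 peak in both replicates. Eif4a1 had folds of 1.91 and 3.33 with −log10 q of 0.654 and 2.95 and 649 bp under peaks of both within 25 kb, and Eif4a2 had 2.92 and 2.65 with −log10 q of 1.92 and 1.39. Eif4e2, the cap-binding homologue 4EHP that represses translation, had folds of 2.98 and 3.87 and −log10 q of 1.83 and 3.93. The second was the tallest among the overlapping peaks of replicate 2 at the 33 genes. Eif4g2, which encodes the cap-independent scaffold DAP5, had the widest peaks of the group, 1742 and 1940 bp, with folds of 2.56 and 3.24, and no other coding gene ends within 1 kb of them. Their −log10 q was 1.52 and 2.32. Eif4h, a helper of the helicase, had folds of 2.05 and 2.53. Eif4b and Eif4g1, the main scaffold, had gene-end peaks in replicate 1 alone, with folds of 2.13 and 2.04. Eif4g3 had no gene-end peak, but its annotated starts, inside the gene span, lay under peaks of both replicates. These shared 390 bp and began 1385 bp from the gene end.

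None of the 4 repressing partners of eIF4E was acetylated. With 16.8% of all genes acetylated, this count is near the background and is no result about them. Eif4ebp2 had a peak of 960 bp in replicate 2 alone, with a fold of 1.92 and a −log10 q of 0.705. Eif4ebp1, Eif4ebp3 and Eif4enif1, which encodes the transporter 4E-T, had none in either replicate. The 879 bp shared near Eif4ebp3 lay at ends of Sra1 and Slc35a4.

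Of the 7 remaining initiation factors 4 were acetylated. Eif5, which triggers GTP hydrolysis on eIF2, had peaks of 1463 and 1191 bp across its start, with folds of 2.15 and 2.16, −log10 q of 0.744 and 0.864 and 1010 bp shared. Eif5b had folds of 1.88 and 2.49, but the peak of replicate 2 ended 659 bp upstream of the start, and an end of Txndc9 lies within 1 kb. At Eif2a, an alternative carrier of initiator tRNA, peaks with folds of 1.92 and 2.18 ended 11 and 23 bp before the start, with −log10 q of 0.584 and 0.82 and 747 bp shared, and an end of Serp1 lies within 1 kb. Eif2d and Eif6, which keeps the ribosomal subunits apart, had peaks in replicate 2 alone, with folds of 2.42 and 2.28. Ends of BC029722 and Mmp24 lie within 1 kb of the Eif6 peak.

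Elongation factors were acetylated at 5 of 7 genes. Beside Eef1a1 these were Eef2 and 3 subunits of the exchange factor that recharges eEF1A, Eef1b2, Eef1d and Eef1g. Eef1g had the greatest shared length of the group, 1883 bp, with folds of 2.53 and 2.79 and −log10 q of 1.53 and 1.35. Of that length 1230 bp lay in its own peaks, and an end of Tut1 lies within 1 kb. Eef2 had start peaks of 1031 and 499 bp with folds of 1.98 and 2.41 and −log10 q of 0.682 and 1.51, and peaks of both covered 760 bp within 25 kb. Replicate 2 had a further, taller peak 720 bp beyond the 3' end of Eef2, near Dapk3, with a fold of 4.91 and a −log10 q of 5.99, where the nearest peak of replicate 1 was the start peak, 4894 bp from that end. Eef1b2 had folds of 1.81 and 2.21 and Eef1d had 1.61 and 1.93. In both replicates an end of Ndufs1 lies within 1 kb of the Eef1b2 peak and an end of Tigd5 within 1 kb of the Eef1d peak. The Eef1b2 peak of replicate 1 ended 46 bp before the start. Eef1e1, a multisynthetase complex subunit related to the exchange factor, had a peak in replicate 1 alone.

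Of the 8 genes for enzymes that modify elongation factors 2 were acetylated (25%), against 16.8% of all genes. Eef2k, the kinase that slows elongation by phosphorylating eEF2, had folds of 2.48 and 2.04 with −log10 q of 1.09 and 0.806, and Eef1akmt2, a lysine methyltransferase of eEF1A, had folds of 1.81 and 2.11 with −log10 q of 0.579 and 0.732. Eef2kmt had a peak in replicate 1 alone and Eef1akmt1 in replicate 2 alone. Eef1akmt3, Eef1akmt4, Eef1akmt4-ece2 and Eef1aknmt had none. Eef1akmt4 and its read-through gene Eef1akmt4-ece2 share 1 start and are not independent. The 663 bp shared near Eef1akmt3 lay 73 bp from an end of Cdk4.

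**Figure D3:**
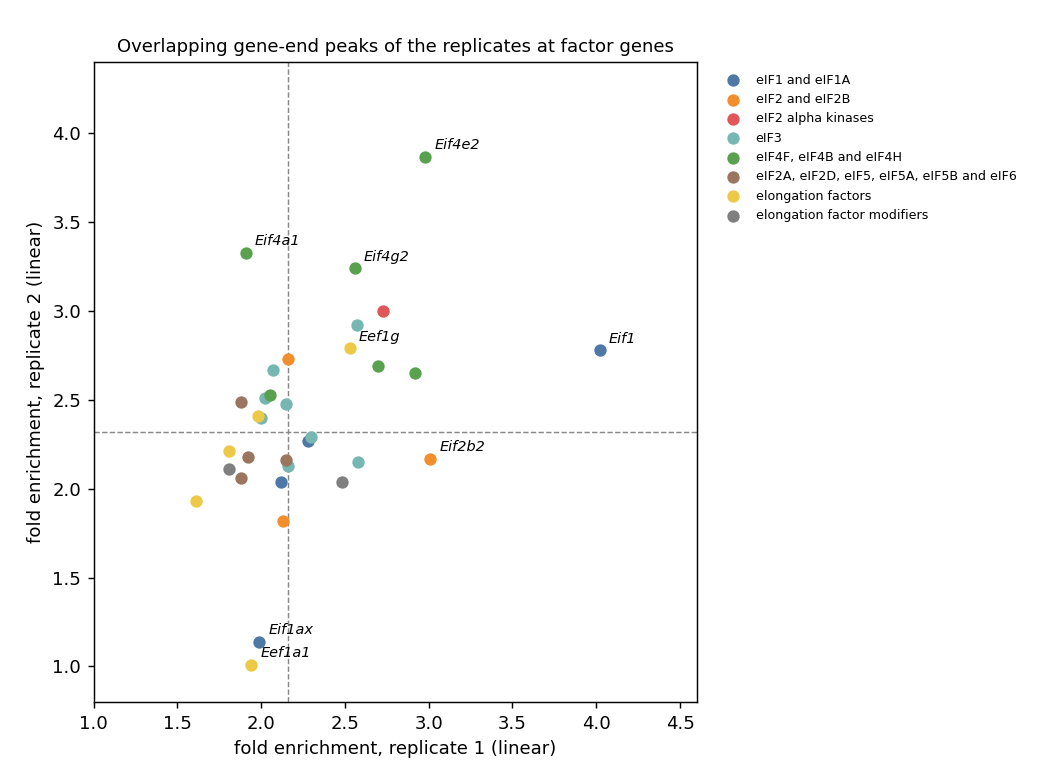
Each point is 1 of the 33 acetylated genes, with the fold enrichment of its overlapping gene-end peaks in replicate 1 (x axis) and replicate 2 (y axis), both linear, coloured by factor group; dashed lines are the medians of all gene-end peaks, 2.16 and 2.32. Eif1 and Eif4e2 stand far from the rest at high folds, and Eef1a1 and Eif1ax at the bottom with folds of 1.01 and 1.14 in replicate 2.

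In height the factor peaks were ordinary. Folds at factor genes ranged from 1.51 to 4.49 around a median of 2.15 in replicate 1 (42 peaks), where all 4654 gene-end peaks had a median of 2.16. In replicate 2 they ranged from 1.01 to 4.91 around a median of 2.28 (43 peaks), where all 4101 gene-end peaks had 2.32. The share of factor peaks with a q-value of at most 0.05 was 26.2% in replicate 1 and 37.2% in replicate 2, against 27% and 42.9% of all gene-end peaks. Median widths were 660 and 711 bp in replicates 1 and 2, against 760 and 681 bp. Across the 33 genes the folds of the replicates had a Spearman's rho of 0.454 and a Pearson's r of 0.429, given as a description, since both files come from 1 caller and cell type. In 8 genes both folds lay above the medians of all gene-end peaks (Eif1, Eif2ak4, Eif3a, Eif4a2, Eif4a3, Eif4e2, Eif4g2 and Eef1g), and in 11 both lay below.

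In covered length the factor genes differed from all genes mainly by being marked at all. Within 25 kb of a gene end, peaks of both replicates covered a median of 302 bp for factor genes and 0 bp for all genes, and were above 0 for 40 factor genes (56.3%) and 30.3% of all genes. Among acetylated genes alone the medians were 605 bp for factor genes and 668 bp for all, with a range of 84 to 2332 bp for factor genes.

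The peaks lay mostly near annotated starts, and many lay wholly downstream of the first start. Of the 33 acetylated genes 27 had an annotated start, and at all 27 both replicates had a peak within 1 kb of one. A gene-end peak can itself be a start peak, so this count follows in part from the rule. The matching share of all acetylated genes is not given here. With Eif4g3, 28 of 55 genes (50.9%) had start peaks in both replicates, against 18.2% of 17492 protein-coding genes with an annotated start. Of factor genes with a peak within 1 kb of the first start, 43.2% in replicate 1 and 47.1% in replicate 2 had that base under the peak, against 59.8% and 60.8% of all such genes. In 17 of 37 factor genes of replicate 1 (45.9%) and 15 of 34 of replicate 2 (44.1%) the peaks lay wholly downstream, against 31.1% and 30.6% of all such genes. The median share of covered bp within 1 kb that lay downstream was 88.2% and 94.9% at factor genes in replicates 1 and 2, against 69.6% and 68.4% over all such genes. These shares count annotated starts, which may differ from the starts used in thymocytes.

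**Figure D4:**
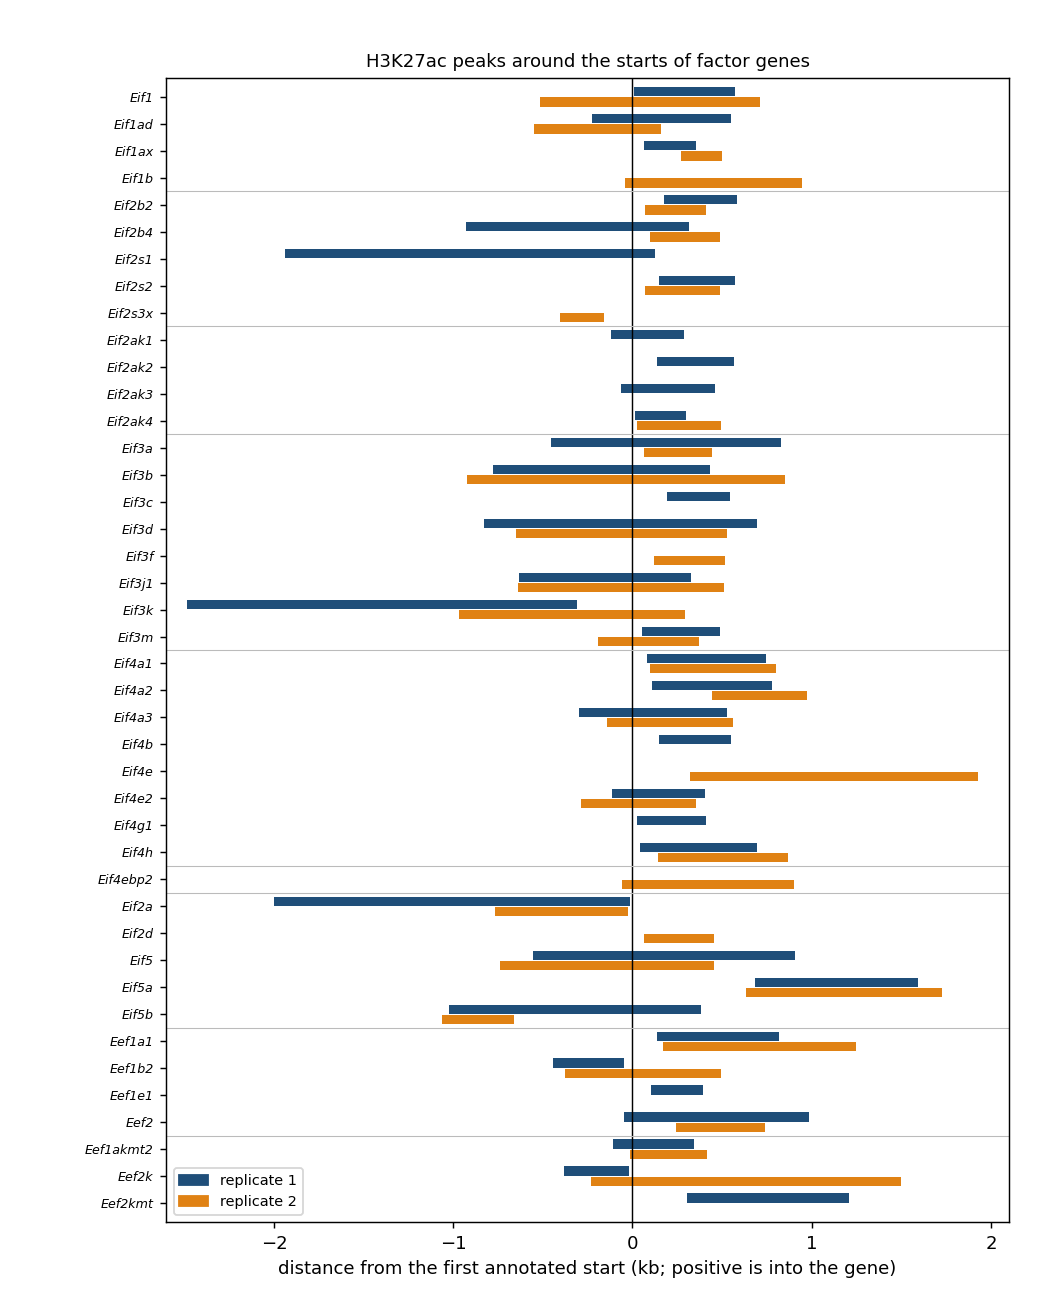
Bars show the H3K27ac peaks of replicate 1 and replicate 2 that lie within 1 kb of an annotated start of a factor gene and of a gene end, by distance from the first annotated start (x axis, kb, positive into the gene), with genes in rows grouped by factor group. Peaks of both replicates at Eif4a1, Eif4a2, Eif4h, Eif2s2, Eif2b2, Eif2ak4, Eif5a and Eef1a1 begin downstream of the start, and those of Eif2a lie wholly upstream.

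Factor genes often sit beside another gene. Another coding gene end lay within 1 kb of an end of 35 of the 71 (49.3%), against 24.8% of all protein-coding genes. Of those 35, 19 were acetylated (54.3%), against 29.9% of all genes with such a neighbour, and of the 36 others 14 were (38.9%), against 12.5%. Both shares lay above those of all genes of the same kind. Only coding neighbours were counted, and the part of neighbouring genes in the mark was not tested.

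Factor promoters were also rich in CpG, which moved with the mark. The median ratio of observed to expected CpG was 0.818 over 55 factor genes and 0.577 over all 17492 genes with a start, and 49 factor genes had a ratio of at least 0.6. Of these 49, 26 were acetylated (53.1%), against 30.5% of all 8466 such genes. Of the 6 with a lower ratio (Eef1a2, Eif4e, Eif2ak1, Eif4a3l1, Eef1akmt2 and Eif2b5) only Eef1akmt2 was acetylated, and of all genes under that ratio 5.14% were. Ratios were taken at the first start, which at Eif4e lay outside its peak of replicate 2. The part of CpG content in the acetylation of factor genes was not tested beyond this split, which was chosen after seeing the data.

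Short motifs were counted on both strands in the 250 bases before the first start of the 55 genes. The GC box GGGCGG was present in 39 (70.9%), against 42.7% of all 17492 promoters of this length. The E-box CACGTG, the letters bound by Myc and related factors, was present in 12 (21.8%), against 6.65%. Those 12 were Eif1b, Eif3f, Eif3k, Eif4a1, Eif4g1, Eif4h, Eif5a2, Eef2, Eef2k, Eef1aknmt and the shared start of Eef1akmt4 and Eef1akmt4-ece2. Of the 27 acetylated genes 5 held it (18.5%), and of the 28 others 7 did (25%). The ETS letters CCGGAA were in 16 (29.1%, against 15.2% of all), the CCAAT box in 17 (30.9%, against 36.5%) and the TATA box TATAAA in 5 (9.09%, against 12.4%). The NRF1 letters GCGCATGC were in 5 (9.09%, against 2.98%), namely Eef1a1, Eef2, Eif2s1, Eif3k and Eif4h. Of the 27 acetylated genes and the 28 others, 4 and 1 held the NRF1 letters, 5 and 11 the ETS letters, and 5 and 12 the CCAAT box, and these differences were not tested. Among all acetylated genes the GC box was in 61.9%, the E-box in 9.03%, the ETS letters in 27.3% and the NRF1 letters in 5.29%. Acetylated factor genes had 70.4%, 18.5%, 18.5% and 14.8%, in that order. The YY1 letters AAGATGG were in 3 (5.45%, against 4.08%), the ATF4 letters TGATGNAA in Eif2s3x alone (1.82%, against 3.26%) and the CRE letters TGACGTCA in 0 (against 1.98%), although Eef2 holds them just after its start, outside the searched bases. A pyrimidine run within 5 bases of the start was present in 14 (25.5%, against 18.8%), 5 of them acetylated. GC-rich letters occur more in CpG-rich promoters, so these shares are descriptions and not sites of binding.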

How the data were processed

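H3K27ac ChIP-seq peaks of 2 replicates were analysed. Reads were aligned to mm10 with Bowtie2 and peaks called with MACS, listed as version 1.4.2, per the submitters' processing notes. The broad peak layout is that of a later MACS, so the version is uncertain. Peaks were called per sample on reads without duplicates, per the peak names. For the cutoff, the control and the handling of reads with several matches, the sources used here give nothing. The deposited values are a fold enrichment (a ratio) and a −log10 p-value and −log10 q-value per peak, as the authors' caller gave them. They rank peaks within a list only. Without counts, no counting interval can be given.

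Genes, ends and promoters came from RefSeq (GRCm38.p6). Starts and strand were found for 55 of 71 factor genes and 17492 of 21887 genes. Overlap meant at least 1 bp. Covered length took the larger of the 2 gene ends. Python 3.11.15, numpy 2.4.6, scipy 1.17.1 and matplotlib 3.10.9 were used, and interval code was checked on simulated data. With 1 group, no test was made. Every member was named. Values of both replicates were given for paralogue groups, for the 3 genes of each group with the greatest covered length and for genes with a q-value of at most 0.05 in both replicates; others were named with part of their values. Alternatives changed the peak threshold, windows, replicates and background. Members and lists were chosen with earlier results of these data known.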

Additional observations from a re-analysis of the deposited data

How the results depend on the processing

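The share of factor genes with a gene-end peak in both replicates (46.5%, against 16.8% of all genes) was 38.0% with the 10000 peaks of smallest p (14.4% of all genes), 49.3% and 42.3% with windows of 2.5 and 0.5 kb (18.9% and 15.3%), and 50.8% without chromosomes 6, 9, 14 and 17 (16.9%). It was 9.86% (2.64%) with a q-value of at most 0.05, 0% (0.731%) with at most 1e-05 and 71.8% (30.5%) with a peak in either replicate. With 1 replicate left out it was 59.2% either way. The cut to 10000 peaks trimmed replicate 1 alone, as replicate 2 held 9477. Broadly used copies counted 2 and their other copies 0 of 7 each with a q-value of at most 0.05, and both counted 0 with at most 1e-05. At annotated starts alone the other copies counted 0 of the 4 with a start. The median covered length (302 bp) was 84 bp within 10 kb, 0 bp with a q-value of at most 0.05, 1193 bp for bp covered by either replicate (441 bp over all genes), and 654 to 880 bp with 1 replicate left out. The median fold in replicate 1 (2.15) was 2.29 without genes that have a coding neighbour within 1 kb. Of the counts by factor group 28 moved by over 1.5 times and 62 did not. Within 100 bases of the start several motif shares were lower, at factor genes and over all promoters, with fewer searched bases. The GC box was in 54.5% (33.6% of all), ETS in 18.2% (9.56%), NRF1 in 5.45% (1.97%), TATA in 3.64% (6.2%) and YY1 in 1.82% (1.39%). The E-box was in 16.4% (3.48%) and the CCAAT box in 21.8% (21.8%). The cause of the other shifts was not tested.

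No paired analysis was possible because the 2 replicates form 1 group. Most factor peaks miss a q-value of 0.05, depth is unknown, and the input was not analysed here, so a missing peak does not show that the mark is absent. Setting the background to CpG-rich genes or to genes with an annotated start was chosen after seeing the data, and gave 53.1% (30.5%) and 49.1% (17.4%).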
